A study of Mus musculus with 6 samples.

Results

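The ER to Golgi trafficking genes are the genes whose products build, load, tether and return the vesicles that carry newly made proteins out of the endoplasmic reticulum (ER). They were taken from the deposited expression table by gene symbol alone. The symbols and the gene lists used below were chosen with earlier results of these data known. Counts set beside shares of all genes are therefore descriptive. The symbols chosen were those of the COPII and COPI coat subunits, the Arf1 to Arf6 and Sar1 GTPases, Gbf1, the Tmed, Lman and Kdelr cargo receptors, the Trappc tethers, and the Sec13, Sec16, Sec22, Sec23, Sec24, Sec31, Sec61, Sec62 and Sec63 genes. This gave 67 of the 13931 genes in the table. By role, 6 belonged to the ER translocon, 14 to the COPII coat, 9 to the p24 cargo receptors, 4 to the lectin cargo receptors, 3 to the Sec22 SNAREs, 13 to the TRAPP tethers, 6 to the Arf GTPases, 9 to the COPI coat with Gbf1, and 3 to the KDEL receptors.

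The RNA came from whole lenses of P0 (newborn) mice on a mixed C57BL/6J and FVB background. It was sequenced in 3 control and 3 Celf1cKO libraries, each made from 2 pooled lenses. Where a single or numbered Celf1cKO lens is named below, it stands for a whole library of this kind. Celf1cKO mice carried one germline knockout allele (Celf1lacZKI), one conditional allele with a floxed exon (Celf1flox), and Pax6GFPCre, a transgene that expresses Cre in the lens lineage from the placode stage. The controls were labelled Celf1lacZKI/+, so that by this label both groups carried the germline allele. The methods describe Celf1flox mice without Cre as the default control, and the sources used here do not settle which of these applies to these libraries. The question was which RNAs differ when the RNA-binding protein Celf1 is lost from the lens.

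Proteins with a signal sequence enter the ER through the Sec61 translocon. They leave it in vesicles coated with COPII, whose assembly is started by the GTPase Sar1, and p24 and lectin receptors help to load them. TRAPP complexes tether the vesicles, SNARE proteins such as Sec22b fuse them, and COPI vesicles, formed under Arf GTPases and the exchange factor Gbf1, carry escaped ER residents and receptors back. Lens fiber cells make large amounts of membrane and membrane proteins, and they degrade their ER and Golgi as they mature.

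Values are log2 CPM, the log2 of the reads per gene relative to the size of the library (CPM) after the authors' normalization. The libraries held 40694454 to 44387151 counted reads. Celf1 itself was at 9.95, 9.94 and 9.34 log2 CPM in controls 1 to 3 and at 8.93, 7.66 and 7.83 in Celf1cKO lenses 1 to 3, a log2 fold-change of -1.60 ± 0.33 (SE) with an adjusted p of 0.0269 (up to 0.108 when one library was left out). Of 10 lens fiber markers, 9 were in the table, and they summed to 290600 to 329500 CPM in controls and 229300 to 245200 CPM in Celf1cKO lenses. Of the other marker lists, the 5 vessel and pericyte genes summed to 104.5 to 141.6 CPM in controls and 12.54 to 115.9 CPM in Celf1cKO lenses, and 4 of 5 mesenchyme genes to 79.34 to 109.8 CPM and 17.99 to 63.13 CPM. The 6 lens epithelium genes summed to 395.5 to 463.7 CPM in controls and 138.9 to 349.5 CPM in Celf1cKO lenses. The 5 of 7 retina genes in the table summed to 7.991 to 25.76 CPM and 2.305 to 16.28 CPM. In these 4 lists Celf1cKO 2 had the lowest sum of the 6 libraries. Genes called lower numbered 3 of the 9 lens fiber markers, 1 of the 6 epithelium, 1 of the 4 mesenchyme, 1 of the 5 retina and 0 of the 5 vessel and pericyte markers, and none of the 6 cornea and skin epithelium markers was in the table. In bulk tissue, fewer cells of a type cannot be told apart from less RNA per cell, and the part of these differences in the results on trafficking genes was not tested.

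More of the ER to Golgi trafficking genes were higher in Celf1cKO lenses than lower. The 6 members that passed every threshold were the cargo receptors Tmed2 and Tmed10, the SNARE Sec22b, the coat subunit Sec23a, the tether Trappc2 and the GTPase Arf2, from 1.51-fold for Arf2 to 1.87-fold for Tmed2. A gene was called if limma gave an adjusted p under 0.05 over all 13931 genes, if its log2 fold-change exceeded 0.58 upward or downward, and if its mean level exceeded 1 log2 CPM. By these thresholds 6 of the 67 members were called higher, where 4.77% of all genes were, and 0 were called lower, where 2.63% of all genes were. Only genes with a mean level above 1 log2 CPM can be called, which held for 63 members and 10640 genes of the table. Of those 10640 genes, 6.24% were called higher. At an unadjusted p under 0.05, 28 members were higher, against 16.3% of all genes, and 1 was lower, against 13.7%. With limma voom on the reads worked back from the table, 6 members were called higher, against 4.66% of all genes, and 0 lower, against 2.89%.

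By the adjusted p alone, 0 members were lower, against 4.03% of all genes. In the other direction 14 members were higher, against 7.85% of all genes and 9.82% of the 10640 genes. The 8 of these that missed the fold threshold were Sec13, Sec23b, Sec61g, Lman1, Kdelr2, Copb2, Trappc1 and Arf4, with log2 fold-changes of 0.40 to 0.51. The libraries of the groups did not overlap for 31 members that were higher in Celf1cKO lenses, against 19.5% of all genes, and for 4 that were lower, against 17.0%. The log2 fold-change was positive for 48 members and negative for 19, whereas 46.4% of all genes and 50.4% of the 10640 genes had a positive one. Its median over the members was 0.179, compared with -0.035 over all genes and 0.004 over the 10640 genes whose mean level exceeded 1 log2 CPM. The 4 members at or below that level were Sec16b, Sec31b, Lman1l and Kdelr3, so they could not be called.

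**Figure D1:**
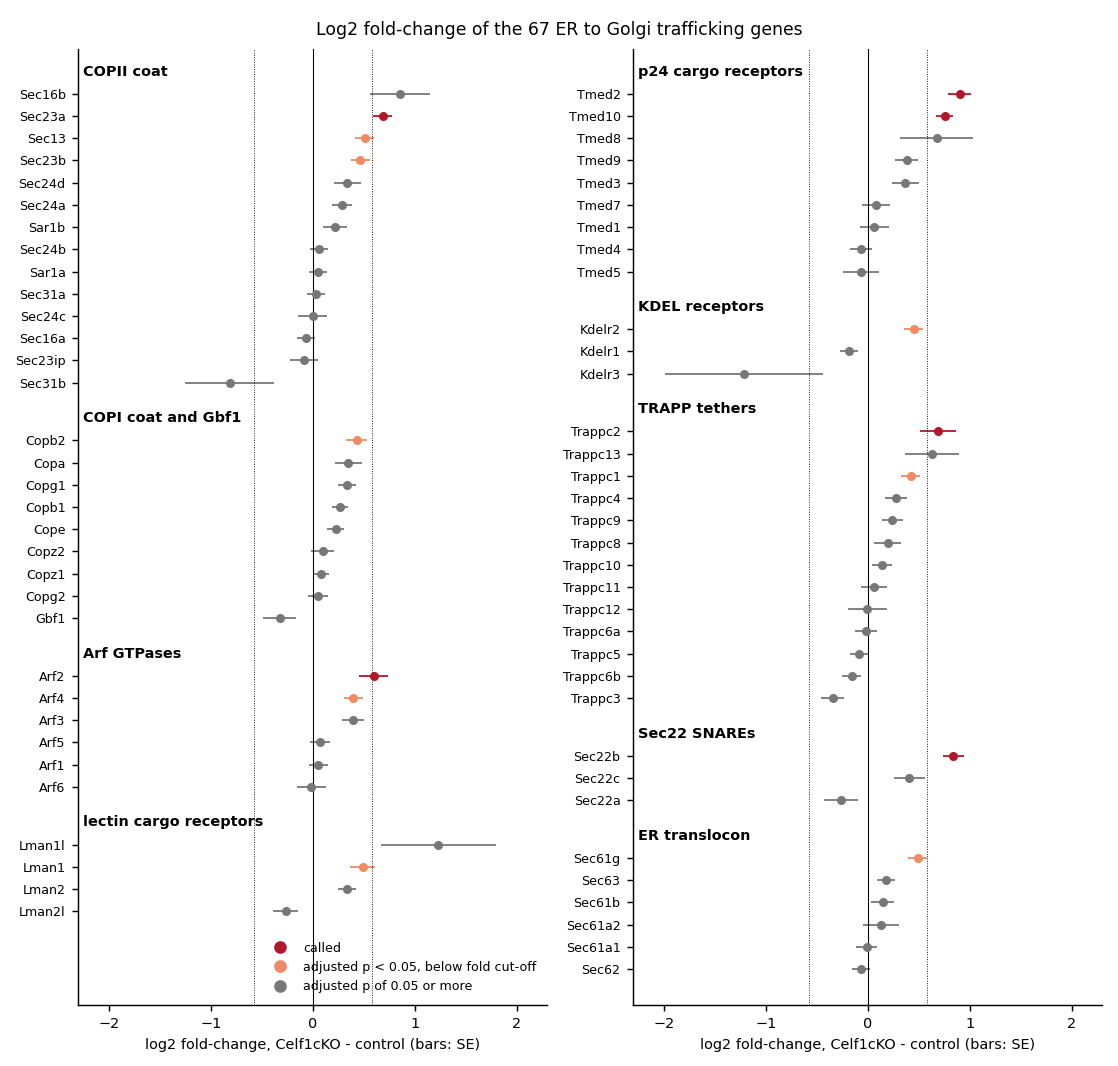
Log2 fold-change (Celf1cKO minus control, horizontal axis) of each of the 67 members, grouped by role, with bars of 1 SE. Red points are the 6 called members, orange points the 8 with an adjusted p under 0.05 below the fold threshold, and grey points the other 53, and dotted lines mark a log2 fold-change of 0.58 in either direction. The members near 0 change sign with the scaling of the libraries, 13 of them when libraries are scaled by total reads.

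These counts depended on single libraries and on the scaling. Without control 2 or without Celf1cKO 3, 0 members were called by limma. The log2 fold-changes of the 6 called members were then at least 0.635 without control 2 and at least 0.57 without Celf1cKO 3. In each of these fits 1 gene of the whole table was called. Without control 1, control 3 or Celf1cKO 2, the called members were Tmed2, Tmed10, Sec22b and Sec23a, where 2.19% to 3% of all genes were called higher. When libraries were scaled by total counted reads, the median of the 10640 genes moved up by 0.225 and that of the members to 0.405, with 18 members called higher, where 11.9% of all genes were. Total-count scaling shifts all genes by nearly the same amount, so the members' median stayed 0.175 above that of the 10640 genes. With quantile normalization the members' median lay 0.118 above that of the 10640 genes. With median centring or after rescaling without the crystallin genes 4 of the 6 were called, where 4.22% and 4.21% of all genes were, and with quantile normalization 5 were, where 4.52% were. Without the variance trend 4 were called and on the log2(CPM + 1) scale 5 were, and the share of all genes there was not computed. In these fits the calls of Arf2, Trappc2 or both were lost. With the replicate number in the model as a block, 7 members were called higher, where 5.43% of all genes were, and 16 were higher by the adjusted p, where 9.41% were.

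Promoter sequence was examined because ER to Golgi genes are known targets of stress-responsive transcription factors such as XBP1 and members of the CREB3 family, which bind sequences with the core TGACGTGG. RefSeq promoter windows on GRCm38.p6, running from 250 bases before to 50 after each annotated start, were given for 57 of the 67 members. On either strand, TGACGTGG was in the windows of 8 of 57 members (14.0%), of 1.02% of the 10833 table genes with a window, and of 0.714% of all 27025 genes with one. The sites are shown because the core was more frequent in the members' windows than in those of other genes, and this choice was made after the shares were seen. Each site is printed 5′ to 3′ along the gene's own strand with 10 bases on each side, and the capitals mark the core, which reads CCACGTCA where it lies on the opposite strand:
Arf1: cggcaggcgcTGACGTGGctgccgtcag
Copb1: ccgcccccttCCACGTCAgccaaggact
Copb2: cccggaagttCCACGTCAgtgggttggc
Gbf1: aggctagttaCCACGTCAgtgagctgac
Kdelr3: ggccgccccgCCACGTCAccgcgcggcc
Sec16b: tctgtgtggcTGACGTGGcacggcagtt
Sec23a: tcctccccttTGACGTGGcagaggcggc
Sec24d: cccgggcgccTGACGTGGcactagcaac

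These sites lay close to the start of transcription. Coordinates are those of the printed stretches, which hold the core and the 10 bases on each side of it. The stretch of Sec23a lies at chr12:59011994-59012021 on the minus strand, and its core began 7 bases after the annotated start, inside the first exon of that start. The stretch of Copb2 lies at chr9:98563714-98563741 on the plus strand, and its core began 7 bases before the start. The stretches of Gbf1 (chr19:46152536-46152563), Sec24d (chr3:123267460-123267487), Copb1 (chr7:114254691-114254718), Kdelr3 (chr15:79516368-79516395) and Sec16b (chr1:157506742-157506769) hold cores that began 12, 26, 28, 30 and 44 bases before the start. The core in the Arf1 stretch (chr11:59228229-59228256) fell in windows of different starts, 84 bases before one and 22 after the other.

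Among the genes with the core, 6 had a positive log2 fold-change. The negative ones were Kdelr3 and Gbf1, with limma adjusted p of 0.328 and 0.21. The log2 fold-changes ran from -1.21 for Kdelr3 to 0.86 for Sec16b, both low-level members that could not be called. The median over the genes with the core was 0.30, and 2 of them, Sec23a and Copb2, had an adjusted p under 0.05. The 49 members with a window but without the core had a median of 0.13, 34 positive values and 8 genes with an adjusted p under 0.05. Among the called members, Tmed10, Sec22b, Arf2 and Trappc2 had windows without the core, and no window was given for Tmed2. A pair of related ER stress elements, CCAAT and CCACG spaced by 9 bases and ATTGG and CCACG spaced by 1 base, were in 0 of the 57 windows, where 0.175% and 0.0831% of table genes held them. Absence of a match says only that these letters are not in these windows.

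The p24 proteins are small transmembrane receptors that cycle between ER and Golgi and help to sort cargo, including proteins with lipid anchors. They held the largest log2 fold-change among the called members. Tmed2 (chr5:124540695-124550506) was at 5.63, 5.54 and 5.34 log2 CPM in controls 1 to 3 and at 6.27, 6.54 and 6.39 in Celf1cKO lenses 1 to 3. Its Celf1cKO lenses were all above its controls, with a log2 fold-change of 0.90 ± 0.11 (SE) and an adjusted p of 0.00951. Tmed10 (chr12:85340614-85374847), the most abundant p24 receptor per length, was at 7.21, 7.08 and 7.03 log2 CPM in controls and 7.80, 7.90 and 7.87 in Celf1cKO lenses. The groups were separated by more than the spread within either of them, and the log2 fold-change was 0.75 ± 0.08 with an adjusted p of 0.00888. Tmed2 and Tmed10 are known to pair with each other in p24 complexes. Both have processed pseudogenes with at least 95% identity over 300 bases or more, Gm10698 and Gm7318 for Tmed2 and Tmed10-ps for Tmed10, and none of these pseudogenes was in the table. Tmed10 and Sec23a also overlap antisense genes, Gm47819 and Gm17529.

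The other 7 p24 members did not pass the adjusted p. Tmed9 was at 6.14, 6.13 and 5.79 log2 CPM in controls and at 6.45, 6.38 and 6.38 in Celf1cKO lenses, and Tmed3 at 5.74, 5.98 and 5.49 and at 6.03, 6.20 and 6.08. For both, the lowest Celf1cKO lens was above the highest control, with log2 fold-changes of 0.38 (adjusted p = 0.0672) and 0.37 (adjusted p = 0.111). Tmed8, a low-level member at 1.39 ± 0.55 log2 CPM (SD, n = 3) in controls and 2.06 ± 0.47 in Celf1cKO lenses, overlapped between the groups. Tmed1, Tmed4, Tmed5 and Tmed7 had log2 fold-changes of -0.07 to 0.08. Tmed7 shares exon sequence with Ticam2, which was in the table.

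Sec22b, the SNARE that acts in fusion between ER and Golgi membranes, was the one member of its family that passed the adjusted p. Sec22b (chr3:97901190-97923276) was at 5.36, 5.33 and 5.24 log2 CPM in controls and at 6.00, 6.28 and 6.18 in Celf1cKO lenses. Every Celf1cKO lens exceeded every control, and the log2 fold-change was 0.84 ± 0.10 with an adjusted p of 0.00940. Sec22c was at 3.36, 3.14 and 2.96 log2 CPM in controls and 3.46, 3.57 and 3.66 in Celf1cKO lenses, with a log2 fold-change of 0.41 ± 0.15 and an adjusted p of 0.119. Sec22a was at 3.28, 3.53 and 3.40 and at 2.87, 3.29 and 3.26, with a log2 fold-change of -0.26 ± 0.17 and groups that overlapped (adjusted p = 0.326). Sec22a and Sec22c lack the SNARE domain that Sec22b has.

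In the COPII coat, the inner-layer subunit Sec23a was called higher, and Sec13, of the outer cage, and Sec23b passed the adjusted p below the fold threshold. Sec23a (chr12:58958383-59012017) was at 6.93, 6.83 and 6.69 log2 CPM in controls and at 7.43, 7.60 and 7.47 in Celf1cKO lenses. The groups did not overlap, and the log2 fold-change was 0.68 ± 0.09 with an adjusted p of 0.0106. Its promoter window holds the core printed above, whereas no core was in the windows of Sec13 and Sec23b. Sec13 rose from 6.06, 6.23 and 6.04 log2 CPM in controls to 6.50, 6.72 and 6.64, a log2 fold-change of 0.51 ± 0.10 (adjusted p = 0.0198). Sec13 is also a subunit of the nuclear pore. Sec23b, the paralog of Sec23a, was at 4.84, 4.78 and 4.84 log2 CPM in controls and at 5.23, 5.36 and 5.28 in Celf1cKO lenses, a log2 fold-change of 0.47 ± 0.09 (adjusted p = 0.0202).

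Other COPII members had log2 fold-changes nearer to 0. Sec31a, which forms the outer cage with Sec13, was at 7.09, 7.19 and 7.12 log2 CPM in controls and at 7.03, 7.22 and 7.23 in Celf1cKO lenses, a log2 fold-change of 0.03 (95% confidence interval -0.17 to 0.23). The interval holds neither the estimate for Sec13 nor that for Sec23a, but the difference between the genes was not tested. Among the cargo-binding Sec24 subunits, Sec24d had a log2 fold-change of 0.34 and Sec24a of 0.29, with no overlap between the groups and adjusted p of 0.128 and 0.109, and Sec24b and Sec24c had log2 fold-changes of 0.06 and 0.00. The GTPases that start coat assembly, Sar1a and Sar1b, had log2 fold-changes of 0.05 and 0.21. Sec16a, a scaffold of ER exit sites, had -0.06, and Sec23ip, which binds Sec23 proteins, had -0.09. Sec16b, at 41 to 63 reads in controls and 77 to 151 in Celf1cKO lenses, had a log2 fold-change of 0.86 ± 0.30 and an adjusted p of 0.104, and Sec31b, at 24 to 85 reads, one of -0.82 ± 0.44 (adjusted p = 0.251).

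**Figure D2:**
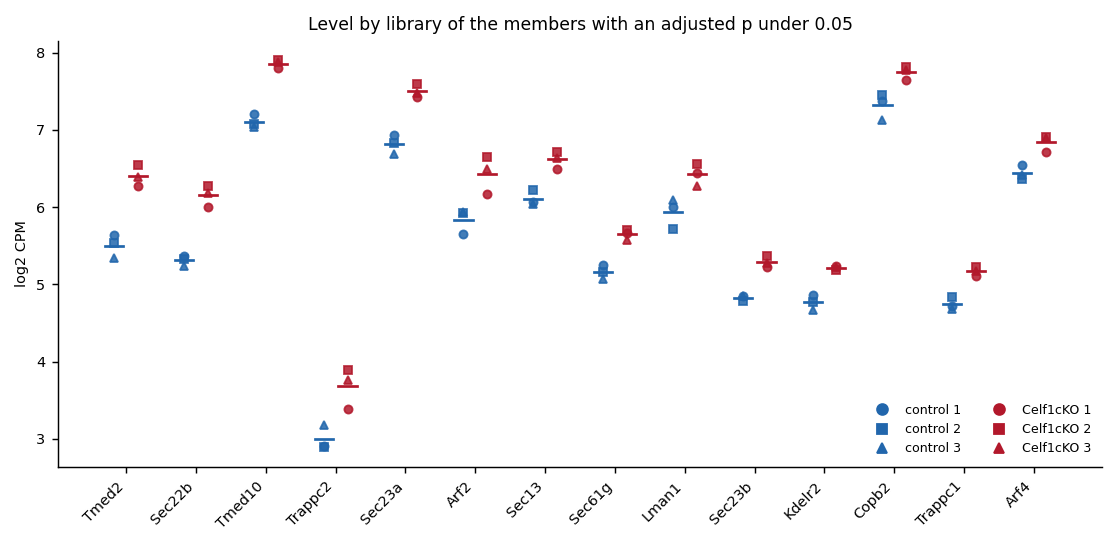
Level (log2 CPM, vertical axis) in each library of the 14 members with an adjusted p under 0.05, ordered by log2 fold-change. Circles, squares and triangles are replicates 1, 2 and 3, blue for control and red for Celf1cKO, and short lines are group means. In all 14 genes the 3 Celf1cKO libraries lie above the 3 controls, from Trappc2 at 2.89 to 3.89 log2 CPM to Tmed10 at 7.03 to 7.90.

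Among the TRAPP subunits, Trappc2 was called higher and Trappc1, of the core shared by TRAPP complexes, passed the adjusted p. Trappc2 (chrX:166440574-166453140), also a core subunit and the gene linked to spondyloepiphyseal dysplasia tarda, was at 2.90, 2.89 and 3.18 log2 CPM in controls and at 3.39, 3.89 and 3.76 in Celf1cKO lenses. All Celf1cKO lenses were above the controls, and the log2 fold-change was 0.69 ± 0.18 with an adjusted p of 0.0471. The adjusted p of Trappc2 was 0.0542 with median centring, 0.0557 after rescaling without the crystallin genes, 0.0501 on the log2(CPM + 1) scale and 0.0751 without the variance trend. It overlaps Ofd1 on the other strand and has a pseudogene, Gm13080, with over 95% identity. Trappc1 was at 4.72, 4.83 and 4.69 log2 CPM in controls and at 5.11, 5.22 and 5.18 in Celf1cKO lenses, a log2 fold-change of 0.42 ± 0.09 (adjusted p = 0.0314).

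The other 11 TRAPP members included the one member with an unadjusted p under 0.05 in the lower direction. Trappc3, another core subunit, was at 5.072, 5.206 and 4.997 log2 CPM in controls and at 4.91, 4.68 and 4.65 in Celf1cKO lenses, with a log2 fold-change of -0.34 ± 0.11 and an adjusted p of 0.0908. Trappc6b was also lower without overlap (log2 fold-change -0.16, and 0.07 with total-count scaling). Trappc13 was at 3.67, 3.99 and 4.47 log2 CPM in controls and at 4.18, 4.97 and 4.86 in Celf1cKO lenses. Its groups overlapped, and within each replicate number the Celf1cKO lens was above the control. With the replicate number in the model as a block its log2 fold-change of 0.63 went from an adjusted p of 0.164 to 0.0399 and it was called. Trappc4 and Trappc9 had log2 fold-changes of 0.28 and 0.24 without overlap between the groups, and the other 6 TRAPP members had values of -0.08 to 0.19.

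The Arf GTPases recruit COPI and other coats to membranes. Arf2 (chr11:103966739-103985337) was at 5.66, 5.92 and 5.94 log2 CPM in controls and at 6.17, 6.65 and 6.49 in Celf1cKO lenses. Its groups did not overlap, and its log2 fold-change of 0.60 ± 0.14 (adjusted p = 0.0384) lay just above the threshold of 0.58. The log2 fold-change of Arf2 was 0.573 with median centring, 0.577 after rescaling without the crystallin genes and 0.51 with quantile normalization, and without the variance trend its adjusted p was 0.0891. Arf4 was at 6.55, 6.37 and 6.42 log2 CPM in controls and at 6.72, 6.91 and 6.90 in Celf1cKO lenses, a log2 fold-change of 0.40 ± 0.09 (adjusted p = 0.0357), and it overlaps Pde12 and Arf4os on the other strand. Arf3 was close to it in size, with a log2 fold-change of 0.39 ± 0.11 and an adjusted p of 0.0531. Arf1 had the highest level per length of all 67 members, 126 ± 9.40 CPM per kilobase of exon (SD, n = 3) in controls and 131 ± 7.84 in Celf1cKO lenses. The log2 fold-change of Arf1 was 0.06 (95% confidence interval -0.16 to 0.27), or -0.04 with quantile normalization. Arf5 and Arf6 had log2 fold-changes of 0.07 and -0.02.

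The COPI coat brings material back from the Golgi. With Gbf1, 8 of its 9 members had a positive log2 fold-change and 1 passed the adjusted p. Copb2, the beta-prime subunit that binds retrieval signals, was at 7.38, 7.45 and 7.13 log2 CPM in controls and at 7.65, 7.81 and 7.78 in Celf1cKO lenses. Copb2 rose by a log2 fold-change of 0.43 ± 0.10 with an adjusted p of 0.0417, and its promoter site is among those printed. Copa, Copg1, Copb1 and Cope had log2 fold-changes of 0.35, 0.34, 0.27 and 0.22, each without overlap between the groups and each with an adjusted p of 0.0503 or more. With the replicate block, Copg1 passed with an adjusted p of 0.0475. The paralog Copg2 had a log2 fold-change of 0.05 (-0.04 with quantile normalization), and Copz1 and Copz2 had 0.08 and 0.10. Gbf1, which activates Arf GTPases at the early Golgi, was at 6.93, 7.20 and 7.29 log2 CPM in controls and at 6.50, 7.01 and 6.95 in Celf1cKO lenses, a log2 fold-change of -0.33 ± 0.16 with groups that overlapped (adjusted p = 0.21).

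Lman1 (ERGIC-53), a mannose-binding receptor that carries glycoproteins such as clotting factors out of the ER, was at 6.00, 5.72 and 6.09 log2 CPM in controls and at 6.45, 6.56 and 6.27 in Celf1cKO lenses. This was a log2 fold-change of 0.49 ± 0.13 with an adjusted p of 0.0480, which became 0.0609 with the replicate block. Lman2, also a lectin of the early secretory route and the most abundant of the 4 per length, was at 5.95, 6.06 and 6.07 log2 CPM in controls and at 6.25, 6.40 and 6.43 in Celf1cKO lenses. Its log2 fold-change of 0.34 ± 0.09 had an adjusted p of 0.0501, or 0.0415 with the replicate block. Lman2l was at 4.51, 4.55 and 4.82 and at 4.33, 4.29 and 4.45 log2 CPM, lower in all Celf1cKO lenses, with a log2 fold-change of -0.27 ± 0.12 and an adjusted p of 0.186. Lman1l rested on 3 to 12 reads in controls and 13 to 38 in Celf1cKO lenses, with a log2 fold-change of 1.23 ± 0.56 and an adjusted p of 0.19.

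The KDEL receptors return ER-resident proteins that carry a KDEL-type tail, and of the 3, Kdelr2 passed the adjusted p. Kdelr2 was at 4.86, 4.77 and 4.67 log2 CPM in controls and at 5.24, 5.19 and 5.22 in Celf1cKO lenses. It was higher in every Celf1cKO lens, with a log2 fold-change of 0.45 ± 0.09 and an adjusted p of 0.0259. Kdelr1, the most abundant of the 3 per length, was at 5.97, 5.89 and 5.82 log2 CPM in controls and at 5.79, 5.62 and 5.70 in Celf1cKO lenses. All its Celf1cKO lenses lay below its controls, with a log2 fold-change of -0.19 ± 0.09 and an adjusted p of 0.204. With total-count scaling its log2 fold-change was 0.04. Kdelr3 was at 13 to 36 reads in controls and 2 to 25 in Celf1cKO lenses, with the lowest value in Celf1cKO 2, and its groups overlapped (log2 fold-change -1.21 ± 0.77, adjusted p = 0.328).

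In the ER translocon, the small subunit Sec61g was the one member that passed the adjusted p. It was at 5.25, 5.16 and 5.07 log2 CPM in controls and at 5.67, 5.71 and 5.58 in Celf1cKO lenses, a log2 fold-change of 0.49 ± 0.09 (adjusted p = 0.0196). A processed transcript in the table, Gm10177, is identical to Sec61g over 420 bases. Only uniquely mapped reads were kept, so reads from that stretch could have been lost from the counts, which was not tested. Sec61a1, the pore-forming subunit and the most abundant per length, was at 7.20, 7.23 and 6.91 log2 CPM in controls and at 7.16, 7.06 and 7.09 in Celf1cKO lenses, a log2 fold-change of -0.01 (95% confidence interval -0.26 to 0.23) that was 0.215 with total-count scaling. Sec61b, Sec61a2, Sec62 and Sec63 had log2 fold-changes of 0.15, 0.13, -0.07 and 0.18.

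**Figure D3:**
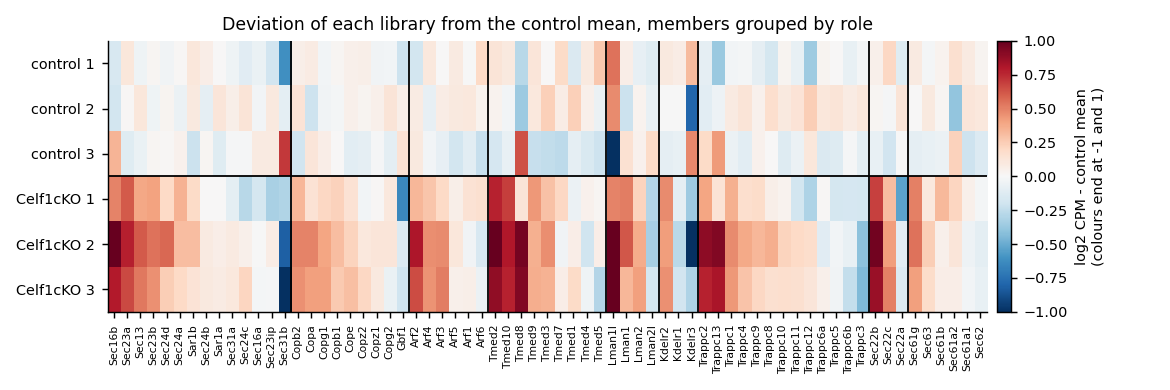
Deviation of each library (rows) from the control mean on the log2 CPM scale (colour, ending at -1 and 1) for all 67 members (columns), with vertical lines between the role groups. Celf1cKO libraries 1, 2 and 3 have 49, 50 and 50 members above the control mean (73.1%, 74.6% and 74.6%, beside 50.2%, 47.7% and 48.2% of all genes in the table), with median deviations of 0.15, 0.22 and 0.19.

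Across libraries the pattern was shared by the 3 Celf1cKO libraries. The median deviation of the members from their control means was 0.15, 0.22 and 0.19 log2 CPM in Celf1cKO lenses 1 to 3, and 0.01, 0.05 and -0.07 in controls 1 to 3. In Celf1cKO lenses 1 to 3, 33, 42 and 41 members were above all 3 controls (49.3%, 62.7% and 61.2%), where 30.9%, 34.4% and 31.4% of all genes in the table were. The library with the lowest vessel, mesenchyme and epithelium marker sums, Celf1cKO 2, had the largest median deviation. It also had the lowest Celf1 level, 7.66 log2 CPM. Marker sums and Celf1 level cannot be told apart here, and the part of either in the deviation was not tested. Without Celf1cKO 2, 4 members were called, where 2.19% of all genes were, and the members' median log2 fold-change was 0.15. Without Celf1cKO 1, 7 members were called, where 7.46% of all genes were.

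The log2 ratio of related members within a library cancels the scaling of that library, apart from the small prior count in the deposited values. It was computed for 21 pairs and compared between groups with a two-sided exact permutation test, whose smallest possible p with 3 against 3 libraries is 0.1. The ratio did not overlap between the groups in 10 pairs, 5 in each direction, and each of these had the exact p of 0.1 and a Benjamini-Hochberg adjusted p of 0.21 over the 21 pairs. The share over pairs of other genes was not computed, so this count stands without a background. Some pairs also share a gene, such as Sec22a, and are not independent. The ratio of Sec22b to Sec22a was 1.91 ± 0.15 log2 units (SD, n = 3) in controls and 3.01 ± 0.11 in Celf1cKO lenses, a difference of 1.10. The ratio of Kdelr1 to Kdelr2 was 1.12 ± 0.02 in controls and 0.49 ± 0.06 in Celf1cKO lenses, a difference of -0.64.

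Without overlap, the ratio was higher in Celf1cKO lenses by 0.60 log2 units for Lman2 to Lman2l, by 0.32 for Arf4 to Arf5, and by 0.22 for both Sec24a to Sec24b and Sec23a to Sec23b. The difference was -0.92 for Sec16a to the sparse Sec16b, -0.67 for Sec22a to Sec22c, -0.45 for Tmed4 to Tmed9, and -0.34 for Arf1 to Arf3, also without overlap. For the other 11 pairs the groups overlapped. In 6 of these (Sar1a-Sar1b, Sec24c-Sec24d, Copg1-Copg2, Kdelr1-Kdelr3, Kdelr2-Kdelr3 and Tmed3-Tmed7) the ratio differed in one direction between the Celf1cKO lens and the control of each of the 3 replicate numbers, which was not tested. The pairs with Kdelr3 and Sec31b ranged widely between libraries of the same group.

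**Figure D4:**
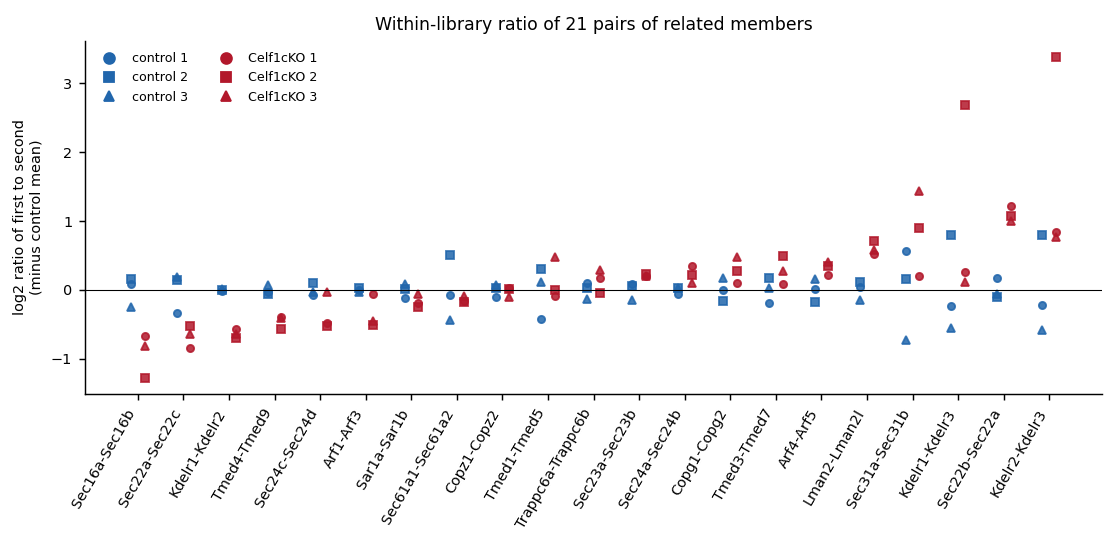
Log2 ratio of the first to the second gene of each of 21 pairs of related members in each library, minus the mean of the 3 controls (vertical axis), with circles, squares and triangles for replicates 1, 2 and 3 in blue (control) and red (Celf1cKO). The Celf1cKO libraries lie apart from the controls for Kdelr1-Kdelr2 and Sec22b-Sec22a, at mean differences of -0.64 and 1.10, and the pairs with Kdelr3 scatter most.

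The genes around these members in the same route were read from a pair of lists. Of 50 other ER to Golgi genes, 48 were in the table and not already members. Of these, 4 were called higher and 0 lower, where 4.77% and 2.63% of all genes were. A mean level above 1 log2 CPM held for 46 of the 48. Of the 10640 such genes in the table, 6.24% were called higher and 9.82% were higher by the adjusted p. By the adjusted p 9 were higher, where 7.85% of all genes were, and 0 were lower by limma even at an unadjusted p under 0.05, where 13.7% of all genes were. The called genes were Cnih4, a cornichon cargo receptor, with a log2 fold-change of 0.91, Rab1a and Rab2a, GTPases of ER to Golgi transport, with 0.90 and 0.61, and Arfgef2, an Arf exchange factor of the later Golgi, with 0.64. Rab1a was at 6.35, 6.24 and 6.16 log2 CPM in controls and at 6.94, 7.29 and 7.21 in Celf1cKO lenses, with no overlap between the groups. The cargo receptor Surf4 and the Golgi matrix protein Gorasp2 passed the adjusted p with log2 fold-changes of 0.35 each.

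Upstream of the vesicles, 39 of 41 listed genes of targeting, translocation and early modification at the ER were in the table. By the same thresholds 7 were called higher and 0 lower (with limma voom also 0 lower in both lists), beside the 4.77% and 2.63% of all genes. All 39 had a mean level above 1 log2 CPM. Of the 10640 such genes in the table, 6.24% were called higher and 9.82% were higher by the adjusted p. By the adjusted p 15 were higher, beside 7.85% of all genes, and, beside 4.03%, the oligosaccharyltransferase subunit Stt3b was lower with a log2 fold-change of -0.34. The called genes were Get1, a receptor for tail-anchored proteins, at 1.18, the signal recognition particle subunit Srp19 at 0.97 and its receptor Srpr at 0.62, the oligosaccharyltransferase subunit Rpn1 at 0.89, the translocon-associated Tram1 and Tmco1 at 0.70 and 0.68, and the signal peptidase subunit Spcs1 at 0.63. Rpn1 was at 6.53, 6.24 and 6.22 log2 CPM in controls and at 7.04, 7.38 and 7.24 in Celf1cKO lenses. The median log2 fold-change was 0.35 over this list and 0.13 over the other ER to Golgi genes, beside 0.18 over the members.

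**Figure D5:**
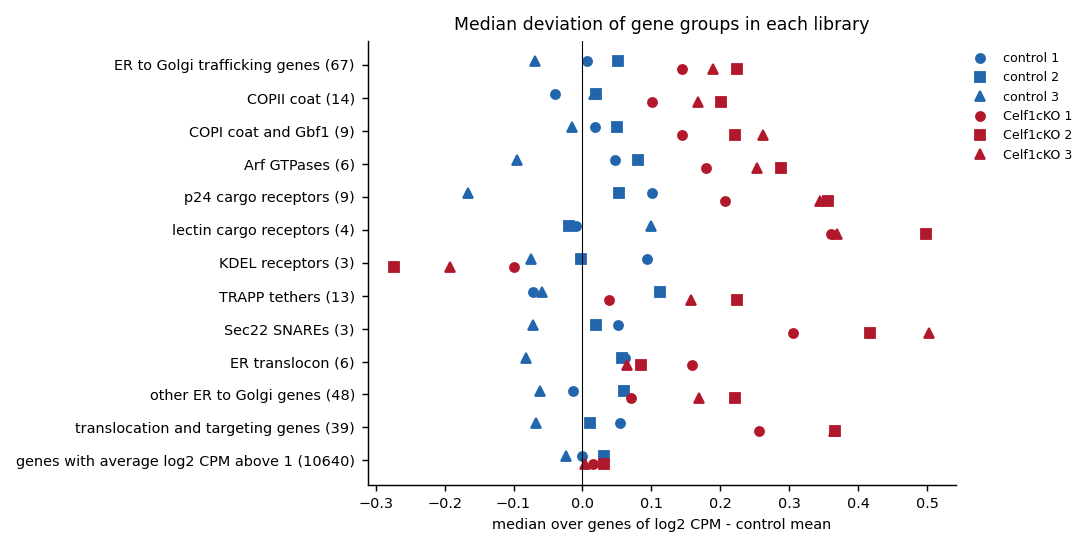
Median over the genes of each group of the log2 CPM deviation from the control mean (horizontal axis) in each library, with the number of genes in brackets, blue for controls, red for Celf1cKO, and circles, squares and triangles for replicates 1, 2 and 3. For all 67 members the Celf1cKO libraries lie at 0.15 to 0.22 and the controls at -0.07 to 0.05. For the 3 KDEL receptors the Celf1cKO medians lie below the control medians, and they are the values of Kdelr1 (limma adjusted p = 0.204). Kdelr2 was higher, with a log2 fold-change of 0.45. The median log2 fold-change of this group, -0.19, turns to 0.04 with total-count scaling.

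Levels were compared between members per length of exon. After Arf1, the highest in controls were Arf5 at 41.0 ± 4.40, Kdelr1 at 31.7 ± 1.67, Cope at 31.6 ± 1.92 and Sar1b at 31.1 ± 3.84 CPM per kilobase of exon (SD, n = 3), and the last 3 of these differed by less than their spread. Tmed10 went from 23.7 ± 1.51 to 40.0 ± 1.47 CPM per kilobase, Sec23a from 23.3 ± 1.91 to 37.4 ± 2.27, and Sec22b from 9.997 ± 0.434 to 17.9 ± 1.75. Sec31b, Sec16b, Lman1l and Kdelr3 were under 0.5 CPM per kilobase in both groups.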

How the data were processed

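Gene expression was measured by strand-specific paired-end RNA-seq of whole P0 lenses in 3 control and 3 Celf1cKO libraries. The authors aligned reads to GRCm38.p6 with STAR 2.7.8a, kept uniquely mapped reads and counted them per gene with featureCounts 2.0.0 (versions from the submitters' processing notes). The strand setting of the counting is not given in the sources used here. The authors then dropped genes with low CPM, normalized with edgeR and deposited log2 CPM per library. Columns of the authors' own comparison (fold-change, F statistic, p-value and FDR) were not used, and their average log2 CPM served as the expression threshold.

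From these values limma 3.58.1 in R 4.3.3 was fitted with a variance trend and no block, and p-values were adjusted by Benjamini-Hochberg over all 13931 genes. The code was tested on simulated data. Apart from the values with the most reads, which the check left out, each value gave a whole number of reads within 0.05 (100% in each library). Limma voom on these reads was therefore an alternative. Precision was set by 3 libraries a group and 40694454 to 44387151 counted reads. Nothing in the sources ties the 2 pooled lenses of a library to single animals, so p-values measure the spread between these libraries. Same-numbered libraries deviated together (correlations of 0.302, 0.417 and 0.348 over 10640 genes, against -0.388 to 0.031 for the other pairings). The numbers may therefore pair the samples. The main fit and the exact test of the ratios did not use such a pairing, so their p-values leave it out. The replicate block, which uses it, was the alternative fit.

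Gene locations and exon lengths came from GENCODE M21 and promoter windows from RefSeq, both on GRCm38.p6. Near-identical copies were transcripts of other genes with at least 95% identity over at least 300 bases. The genes named were all called members, all with an adjusted p under 0.05, the member with the highest level per length in each role, the member with the largest log2 fold-change in a role with no call, and members of paralog pairs. Others named by their values, such as Trappc3, Trappc13, Tmed8 and Gbf1, were chosen after these were seen. The members and lists were chosen with earlier results of these data known. Protein sequences were not analysed here, and neither was the pair of Trappc2 and Trappc2l.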

Additional observations from a re-analysis of the deposited data

How the results depend on the processing

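Across 20 alternative settings, 0 members were called lower in any, 18 were called higher with total-count scaling, 14 without a fold threshold, 0 above a log2 fold-change of 1, and 0 to 7 when one library was left out. By adjusted p alone the count of 14 became 4 without the variance trend, 35 with total-count scaling (where 20.9% of all genes passed upward, against 7.85%) and 0 to 19 when one library was left out. Each left-out library leaves fewer samples, and without control 2 or Celf1cKO 3 the whole table had 1 call. Of all genes, 11.9% were called higher with total-count scaling, 4.52% with quantile normalization and 0.00718% to 7.46% with a library left out. Without a fold threshold, 9.82% of the 10640 genes with a mean level above 1 log2 CPM passed upward. Such shares were not computed without the trend or above a log2 fold-change of 1, so those counts stand without a background. The other ER to Golgi genes called higher numbered 2 without the trend or with quantile normalization, 9 with total-count scaling or no fold threshold, 0 above a log2 fold-change of 1 and 0 to 5 with a library left out. The targeting and translocation genes called higher numbered 4 without the trend, 18 with total-count scaling, 15 without a fold threshold, 1 above a log2 fold-change of 1 and 0 to 12 with a library left out, and those called lower 1 without a fold threshold and 0 to 1. The members' median of 0.179 became 0.405 with total-count scaling, 0.121 with quantile normalization and 0.142 to 0.226 with a library left out. Celf1 kept its log2 fold-change of -1.60 without the trend (adjusted p = 0.0693) and had -1.99 to -1.36 with a library left out.

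Signs changed with the scaling for members near 0. With quantile normalization the log2 fold-changes were -0.005 for Sec24b, -0.032 for Sar1a, -0.045 for Sec31a, -0.044 for Copg2, -0.013 for Arf5, -0.036 for Arf1 and -0.008 for Tmed7. With total-count scaling they were 0.223 for Sec24c, 0.162 for Sec16a, 0.158 for Tmed4, 0.157 for Tmed5, 0.038 for Kdelr1, 0.209 for Trappc6a, 0.066 for Trappc6b and 0.215 for Sec61a1. With one library left out, they ranged from -0.011 to 0.109 for Sar1a, -0.002 to 0.098 for Sec31a, -0.112 to 0.134 for Sec24c, -0.019 to 0.122 for Arf5, -0.052 to 0.178 for Tmed7, -0.009 to 0.185 for Tmed1, -0.173 to 0.067 for Tmed5, -0.089 to 0.039 for Trappc6a, -0.064 to 0.248 for Sec61a2 and -0.115 to 0.049 for Sec61a1. The differences in within-library ratio ranged from -0.068 to 0.026 for Copz1 to Copz2, -0.363 to 0.113 for Sec61a1 to Sec61a2 and -0.076 to 0.283 for Tmed1 to Tmed5. The replicate block gave 7 called members (adding Trappc13) and 16 by adjusted p, and beyond Trappc13, Copg1, Lman2 and Lman1 it changed no call among the 49 named members. The counts rest on 3 libraries a group, and members under 100 reads, such as Kdelr3, Sec31b and Lman1l, carry wide intervals.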
